A study of Mus musculus with 8 samples.

Results

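Chemoattractant receptors are proteins of the cell surface that let neutrophils, monocytes and macrophages follow gradients of chemokines, complement fragments, formylated peptides and leukotriene B4 into a tissue. They belong to the G protein-coupled receptors and signal mainly through Gi proteins. In skin they are known for guiding neutrophils and then monocytes into injured or inflamed dermis. The genes described here were 9 such receptors of myeloid cells, namely Ccr1, Ccr2, Cx3cr1, Cxcr4, C5ar1, C3ar1, Fpr1, Fpr2 and Ltb4r1, found by their symbol in the probe annotation with older synonyms allowed. Of these 9 genes, 8 had an intensity on all 8 arrays, each from 1 probe, out of 13853 probes with values and 9987 named genes in all. Cx3cr1, the fractalkine receptor, had 1 probe that was left blank on all 8 arrays, so it has no level here. Fpr2 was annotated under its older symbol Fpr-rs2.

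The arrays measured RNA of whole abdominal skin from female C57BL/6JNarl mice aged 6 to 8 weeks, 2 arrays for each of 4 groups. Shikonin, a naphthoquinone from the roots of Lithospermum erythrorhizon, was put on the skin in 100 μL of acetone at 10 μg/μL, and the skin was taken after 4 h or after 24 h. The controls received 100 μL of acetone alone and were taken at the same times, so every group had been exposed to the solvent. All samples are whole tissue, and a higher level can come from more cells of a type or from more RNA per cell, which cannot be told apart. The methods call the 2 arrays of a group duplicate samples and speak of independent experiments, but the sources do not tie an array to an animal or to an experiment. Each p-value therefore reflects only how far arrays of the same group lay apart, pooled over the 4 groups and moderated by the spread of all probes. Part of that spread may be technical.

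Array medians lay between 1129 and 1130, and the arrays of a group correlated at 0.986 to 0.992 over all probes on the log2 scale. Intensities below 203.4, the 5% quantile of all values, were treated as a floor. Groups with both arrays set to the floor add no spread to the fit. For Ccr1, C5ar1 and C3ar1 the standard errors (SE) of the group comparisons were 0.18, 0.17 and 0.17. With no floor they were 0.28, 0.22 and 0.21. All 11 keratinocyte markers searched for were measured, as were 13 of 17 neutrophil markers. The shikonin 4 h arrays stood apart in their hair follicle genes, with 8 of 8 measured markers higher and a summed intensity of 149035 to 149766, against 5906 to 6702 on the acetone 4 h arrays and 5436 to 7214 on the shikonin 24 h arrays. Whether this difference in the sampled skin touched the receptor values was not tested.

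All 8 measured receptors were higher in shikonin-treated than in acetone-treated skin at 24 h, and 5 of them, Fpr1, Fpr2, Ltb4r1, C5ar1 and Ccr1, were already higher at 4 h. The remaining 3, Cxcr4, Ccr2 and C3ar1, did not pass the test at 4 h and were higher at 24 h by 5.49-fold, 4.88-fold and at least 6.53-fold. None was lower at either time. Among all probes tested with limma at an adjusted p under 0.05, 21.2% were higher and 25.4% lower in shikonin skin at 4 h, and 29.0% and 32.3% at 24 h. The arrays of shikonin and acetone skin did not overlap, with shikonin higher, for 5 of 8 receptors at 4 h (33.0% of all probes) and for 8 of 8 at 24 h (38.1%), and for C3ar1 at 4 h shikonin was the lower (40.0% of all probes). The median log2 fold change of the 8 receptors was 1.23 at 4 h and 2.37 at 24 h, against -0.06 and -0.02 over all probes. The study's own kind of criterion, a change of 2-fold in both pairs of arrays, was applied here with the floor in place. The paper states no floor for it. By this floored criterion 4 of 8 receptors were higher at 4 h (C5ar1, Fpr1, Fpr2 and Ltb4r1), where 7.38% of all probes were. At 24 h 8 of 8 were higher, where 12.5% of all probes were. Ccr1 missed the criterion at 4 h only because of the floor. Its deposited 4 h intensities, 478 and 339 in shikonin skin against 49.1 and 69.3 in acetone skin, differed more than 2-fold in both pairs. The effect of shikonin was larger at 24 h than at 4 h for 6 of the 8, a difference that 21.1% of all probes showed in this direction. Within shikonin skin 6 of 8 were higher at 24 h than at 4 h (24.2% of all probes), and against acetone skin at 4 h the 24 h shikonin arrays were higher for 8 of 8 (27.8%).

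**Figure D1:**
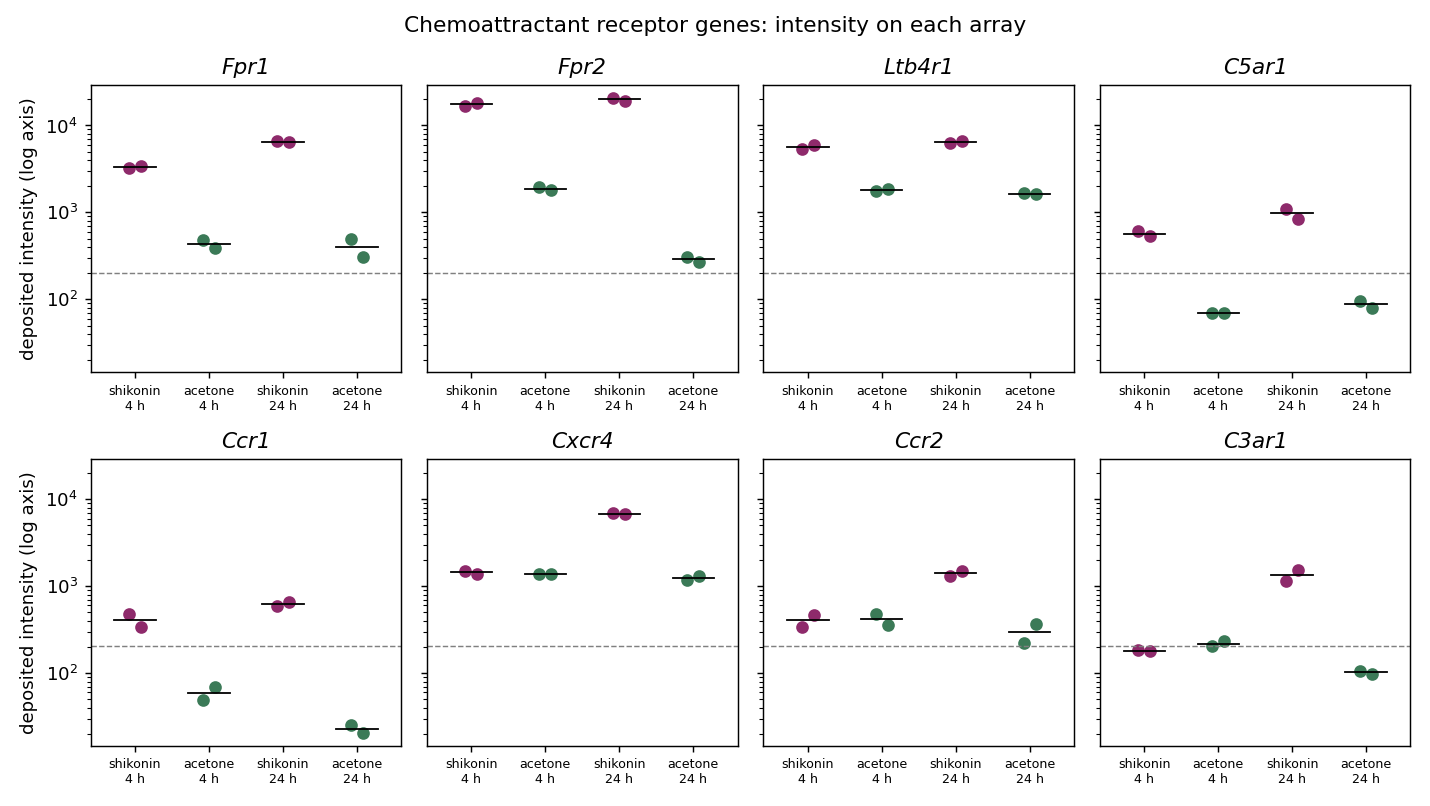
Deposited intensity (log axis) of the 8 measured receptor genes on each of the 8 arrays, with points for single arrays, short lines for group means and a dashed line at the floor of 203.4. The 5 genes Fpr1, Fpr2, Ltb4r1, C5ar1 and Ccr1 were high in shikonin skin at both times, while Cxcr4, Ccr2 and C3ar1 were highest on the shikonin 24 h arrays.

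The formyl peptide receptors Fpr1 and Fpr2 recognize N-formylated peptides released by bacteria and damaged mitochondria, and Fpr2 also binds serum amyloid A and annexin A1. The promoters of these 2 genes, which lie next to each other with Fpr3 beside them, are shown as the 250 bases before the RefSeq start in GRCm38.p6, 5′ to 3′ along the gene's strand. Capitals mark the letters of the TATA box (TATAAA) or the ETS-type pattern GAGGAA on either strand. The shorter letters GGAA, with other bases before them, were not counted.
Fpr1, chr17:17883940-17884189, minus strand: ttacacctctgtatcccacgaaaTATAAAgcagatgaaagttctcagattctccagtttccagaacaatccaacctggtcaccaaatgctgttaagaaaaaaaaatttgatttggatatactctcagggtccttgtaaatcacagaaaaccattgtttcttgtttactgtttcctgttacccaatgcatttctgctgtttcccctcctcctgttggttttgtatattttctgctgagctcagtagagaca
Fpr2, chr17:17887574-17887823, plus strand: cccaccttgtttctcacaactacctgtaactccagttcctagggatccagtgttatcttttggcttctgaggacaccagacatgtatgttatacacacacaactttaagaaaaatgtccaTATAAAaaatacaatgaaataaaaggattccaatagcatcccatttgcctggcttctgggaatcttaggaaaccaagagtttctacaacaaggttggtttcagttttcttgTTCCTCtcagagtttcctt
The TATAAA letters began 227 bases before the start of Fpr1 and 130 bases before that of Fpr2. The GAGGAA pattern began 19 bases before the start of Fpr2 on the other strand. These letters are common: 12.4% of the 32851 promoter stretches of this length held TATAAA and 23.3% GAGGAA.

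Fpr1 had intensities of 3282 and 3456 on the shikonin 4 h arrays, against 484 and 392 on the acetone 4 h arrays. By 24 h the intensities were 6549 and 6460 in shikonin skin, against 496 and 309 in acetone skin. Both shikonin groups lay far above both acetone groups, which overlapped each other. Fpr1 was 7.73-fold higher at 4 h (log2 fold change 2.95, SE 0.21, adjusted p = 7.6e-06) and 16.6-fold higher at 24 h (4.05, SE 0.21, adjusted p = 3.3e-07). The 24 h effect exceeded the 4 h effect by 1.10 on the log2 scale (SE 0.30, adjusted p = 0.0167). That call was lost when acetone 4 h replicate 1 or any 1 of the 4 shikonin arrays was left out, with adjusted p values of 0.0576 to 0.0740. Within shikonin skin, 24 h was above 4 h by 0.95 (adjusted p = 0.0056), and acetone skin at 24 h differed from acetone skin at 4 h by -0.15 without passing the test.

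Fpr2 had intensities of 16863 and 18036 in shikonin skin at 4 h, against 1950 and 1790 in acetone skin. Its 24 h intensities were 20696 and 19157 in shikonin skin, against 308 and 272 in acetone skin. The shikonin levels at 24 h and 4 h were close, whereas the acetone arrays at 24 h were all below those at 4 h. Fpr2 was 9.34-fold higher at 4 h (log2 fold change 3.22, SE 0.12, adjusted p = 1.1e-07) and 68.8-fold higher at 24 h (6.10, SE 0.12, adjusted p = 9.4e-10). With the floor in place, 93 of 13853 probes had a larger log2 fold change at 4 h, and 15 at 24 h. The 24 h effect was larger by 2.88 (SE 0.17, adjusted p = 2.7e-06). Acetone skin at 24 h had 2.69 less on the log2 scale than acetone skin at 4 h (SE 0.12, adjusted p = 1.9e-06), while shikonin skin differed by 0.19 between 24 h and 4 h (95% interval -0.08 to 0.46, adjusted p = 0.21). Set against acetone at 4 h, shikonin skin at 24 h had 10.7-fold more Fpr2 (log2 fold change 3.41, SE 0.12).

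**Figure D2:**
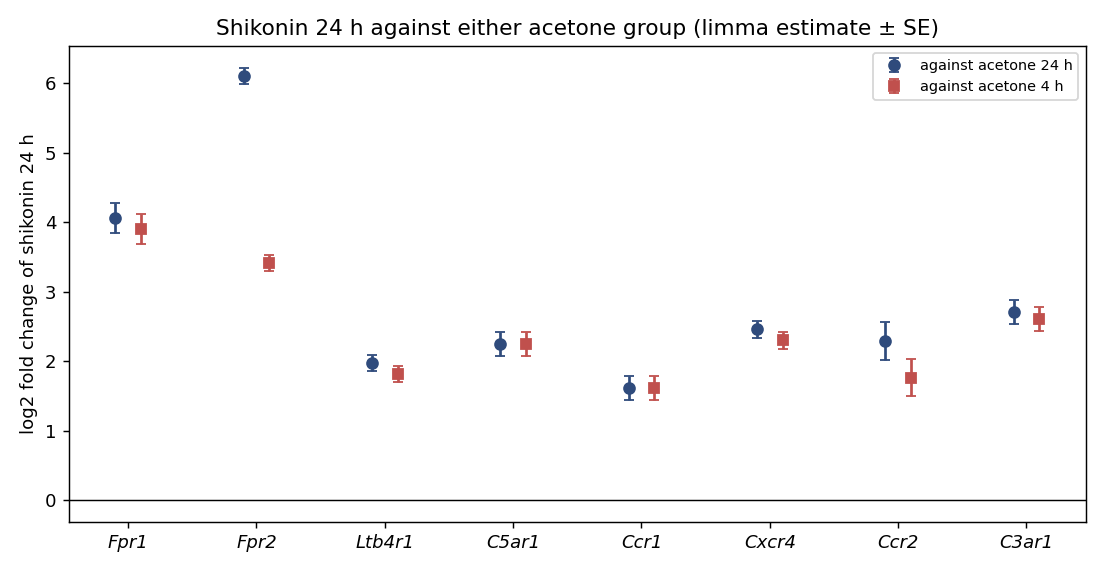
Log2 fold change of shikonin 24 h skin against acetone 24 h skin (circles) and against acetone 4 h skin (squares) for the 8 measured receptors, with bars of 1 SE from the limma fit. Fpr2 had 6.10 against acetone 24 h and 3.41 against acetone 4 h, and the values of Ccr1, C5ar1 and C3ar1 rest on acetone 24 h arrays at the floor, so they have no place in an order of the control differences.

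Fpr2 was the only one of the 8 receptors whose level passed the test between the acetone groups, where 14.2% of all probes were lower at 24 h than at 4 h. Ccr2 joined it when acetone 24 h replicate 2 was left out (log2 fold change -0.90, adjusted p = 0.0429), and Ccr1 (-1.35, adjusted p = 0.0064) and C3ar1 (-1.08, adjusted p = 0.0043) did when no floor was set. C3ar1 also did with a floor at the 1% quantile (-0.96, adjusted p = 0.0061). Neutrophil, monocyte and macrophage, and resident dermal macrophage markers moved the same way in the acetone skin, while other myeloid lists did so less or not at all. Of 13 measured neutrophil markers, 8 were lower and 0 higher at 24 h than at 4 h, and their summed intensity was 23894 to 24161 at 24 h and 86683 to 94722 at 4 h. Of 15 monocyte and macrophage markers, 11 were lower and 1 higher, with a sum of 117490 to 120217 at 24 h and 173485 to 181619 at 4 h. Resident dermal macrophage markers were lower for 6 of 11 and higher for 0, with a sum of 72753 to 76527 at 24 h and 89443 to 89446 at 4 h. Of 8 Langerhans and dendritic cell markers 3 were lower and 1 higher, and of 6 mast cell markers 0 were lower and 1 higher. The part of these cells in the Fpr2 value was not tested.

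Ltb4r1, the high-affinity receptor of leukotriene B4, is best known from neutrophils and other myeloid cells. Its intensities were 5397 and 5981 in shikonin skin at 4 h, against 1786 and 1866 in acetone skin. The 24 h intensities were 6293 and 6574 in shikonin skin, against 1668 and 1614 in acetone skin. The acetone levels were well above the floor, and the groups did not overlap at either time. Ltb4r1 was 3.11-fold higher at 4 h (log2 fold change 1.64, SE 0.11, adjusted p = 5.1e-06) and 3.92-fold higher at 24 h (1.97, SE 0.11, adjusted p = 5.0e-07). The effects differed by 0.33 (95% interval -0.02 to 0.69, adjusted p = 0.119), which did not pass the test except with the floor at the 25% quantile (adjusted p = 0.0440). Shikonin skin at 24 h and 4 h did not differ beyond the spread either (0.18, 95% interval -0.07 to 0.43).

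C5ar1 is the receptor of the complement fragment C5a, a strong attractant of neutrophils. It had intensities of 604 and 530 in shikonin skin at 4 h, against 70.4 and 69.3 in acetone skin. The 24 h arrays gave 1108 and 840 in shikonin skin, against 96.0 and 80.0 in acetone skin. All 4 acetone arrays were below the floor, so the folds are lower bounds. C5ar1 was at least 2.78-fold higher at 4 h (log2 fold change 1.48, SE 0.17, adjusted p = 1.1e-04) and at least 4.74-fold higher at 24 h (2.25, SE 0.17, adjusted p = 3.0e-06). With no floor the log2 fold changes were 3.02 and 3.46. The effects differed by 0.77 (SE 0.24, adjusted p = 0.0268), which with the acetone arrays at the floor is the difference between shikonin skin at 24 h and 4 h. The call on the difference was lost with no floor (0.44, adjusted p = 0.273). It was also lost when either acetone 4 h array, either acetone 24 h array, shikonin 4 h replicate 2 or shikonin 24 h replicate 1 was left out, with adjusted p values of 0.0577 to 0.0788.

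Ccr1, a receptor of Ccl3, Ccl5 and related chemokines, had intensities of 478 and 339 in shikonin skin at 4 h, against 49.1 and 69.3 in acetone skin. For 24 h the values were 587 and 658 in shikonin skin, against 25.3 and 20.7 in acetone skin. As for C5ar1, all 4 acetone arrays lay below the floor. Ccr1 was at least 1.98-fold higher at 4 h (log2 fold change 0.99, SE 0.18, adjusted p = 0.0017) and at least 3.06-fold higher at 24 h (1.61, SE 0.18, adjusted p = 4.2e-05), and with no floor the log2 fold changes were 2.79 and 4.77. With the floor raised to the 25% quantile the 4 h call on Ccr1 and that on C5ar1 were lost (0.04, adjusted p = 0.783, and 0.31, adjusted p = 0.169). The difference of the effects was 0.63 (SE 0.25, adjusted p = 0.0712) and did not pass. It passed with no floor (1.98, adjusted p = 0.0027), with the higher floor (0.41, adjusted p = 0.0182) and without shikonin 4 h replicate 1 (0.87, adjusted p = 0.0107). Shikonin skin at 24 h was above shikonin skin at 4 h by 0.63 (adjusted p = 0.0170), a call lost without shikonin 4 h replicate 2 (0.38, adjusted p = 0.0756), without shikonin 24 h replicate 2 (0.54, adjusted p = 0.0954), with no floor (adjusted p = 0.0908) and with only the shikonin arrays in the fit (adjusted p = 0.0901).

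**Figure D3:**
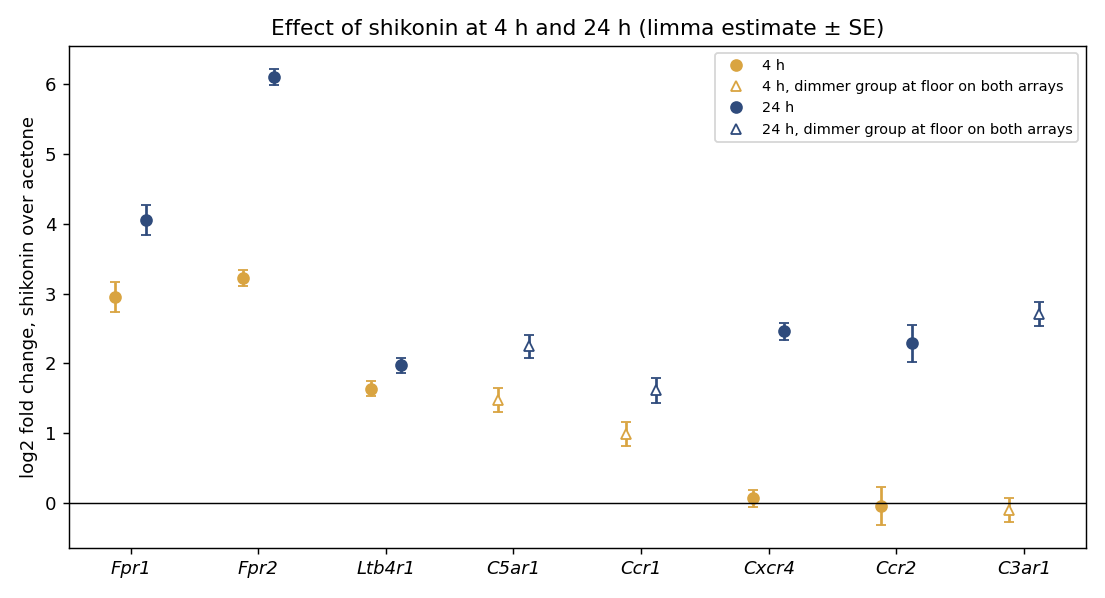
Log2 fold change of shikonin over acetone at 4 h and at 24 h for the 8 measured receptors, with bars of 1 SE from the limma fit. Open triangles mark genes whose dimmer group was at the floor on both arrays, so that the change is a bound, and Cxcr4, Ccr2 and C3ar1 lie near 0 at 4 h and between 2.29 and 2.71 at 24 h.

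Cxcr4, the receptor of Cxcl12, holds maturing leukocytes in bone marrow and is carried by many other cells, among them endothelium. Its level at 4 h was 1514 and 1383 in shikonin skin, against 1368 and 1396 in acetone skin. By 24 h the level was 6884 and 6717 in shikonin skin, against 1172 and 1309 in acetone skin. The 4 h groups overlapped, and the shikonin 24 h arrays stood alone. Cxcr4 differed by 0.07 on the log2 scale at 4 h (95% interval -0.21 to 0.35, adjusted p = 0.70) and was 5.49-fold higher at 24 h (2.46, SE 0.12, adjusted p = 2.4e-07). The difference of the effects was 2.39 (SE 0.17, adjusted p = 9.9e-06). Endothelial markers divided in their changes. Of 8 measured, 1 was higher and 5 lower in shikonin skin at 4 h, 4 were higher and 2 lower at 24 h, and the effect was larger at 24 h for 5 and smaller for 1. Their summed intensity at 4 h was 13138 to 13479 in shikonin skin, against 15301 to 15964 in acetone skin. At 24 h it was 28003 to 28876 in shikonin skin, against 17654 to 18501 in acetone skin, and no endothelial marker was at the floor on both arrays of a group. Their part in the Cxcr4 value was not tested.

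Ccr2 is the receptor of Ccl2 and Ccl7 through which inflammatory monocytes leave the bone marrow and enter tissue. It had intensities of 339 and 472 in shikonin skin at 4 h, against 476 and 359 in acetone skin. The arrays at 24 h gave 1319 and 1483 in shikonin skin, against 221 and 371 in acetone skin. The 4 h arrays overlapped, and their difference was -0.05 on the log2 scale (95% interval -0.65 to 0.56, adjusted p = 0.91). That interval is wide, and at 4 h the sign turned when acetone 4 h replicate 1 (0.16) or shikonin 4 h replicate 1 (0.19) was left out. At 24 h Ccr2 was 4.88-fold higher (log2 fold change 2.29, SE 0.27, adjusted p = 6.5e-05), with a difference of effects of 2.33 (SE 0.38, adjusted p = 0.0012).

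C3ar1, the receptor of the complement fragment C3a, is carried by macrophages and other myeloid cells. Its intensities at 4 h were 186 and 178 in shikonin skin, both under the floor, against 205 and 232 in acetone skin, just above it. At 24 h they were 1144 and 1543 in shikonin skin, against 107 and 98.8 in acetone skin. The 4 h values were all close to the floor, with a difference of -0.10 at the floor (95% interval -0.48 to 0.28, adjusted p = 0.66) and -0.26 without one (adjusted p = 0.33). At 24 h C3ar1 was at least 6.53-fold higher (log2 fold change 2.71, SE 0.17, adjusted p = 9.5e-07), and 3.69 on the log2 scale with no floor. The difference of the effects was at least 2.81 (SE 0.24, adjusted p = 2.6e-05), since both shikonin 4 h arrays and both acetone 24 h arrays were at the floor. Its size moved with the floor, to 3.95 with none, 3.83 with the 1% quantile and 1.54 with the 25% quantile, and it passed the test each time. Shikonin skin at 24 h was above shikonin skin at 4 h by at least 2.71 (adjusted p = 2.7e-06).

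The promoters of Cxcr4 and C3ar1, which were higher at 24 h and did not pass at 4 h, are shown in the same way. Capitals mark the letters TATAAA on either strand.
Cxcr4, chr1:128592300-128592549, minus strand: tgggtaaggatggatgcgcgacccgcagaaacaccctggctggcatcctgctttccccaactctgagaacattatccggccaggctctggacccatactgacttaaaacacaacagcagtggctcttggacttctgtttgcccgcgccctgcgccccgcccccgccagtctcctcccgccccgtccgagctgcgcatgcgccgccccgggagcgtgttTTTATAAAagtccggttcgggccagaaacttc
C3ar1, chr6:122856158-122856407, minus strand: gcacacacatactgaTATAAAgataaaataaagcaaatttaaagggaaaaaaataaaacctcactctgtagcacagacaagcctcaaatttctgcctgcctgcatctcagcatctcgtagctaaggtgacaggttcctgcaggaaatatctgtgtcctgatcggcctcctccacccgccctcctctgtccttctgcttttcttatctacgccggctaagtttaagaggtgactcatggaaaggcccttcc
In Cxcr4 the TATA letters on both strands overlapped and began 32 and 30 bases before the start. In C3ar1 they began 235 bases before it. The letters TATAAA were found, at any distance from the start, in 4 of the 9 receptor promoters (Cxcr4, C3ar1, Fpr1 and Fpr2). The pattern GAGGAA was found in 3 of 9 (Ccr1, Fpr2 and Ltb4r1). Shorter GGAA letters in the other promoters were not counted. The longer PU.1 pattern GAGGAAGT contains GAGGAA. It and the C/EBP pattern TTGCNNAA were found in 0 of 9, against 2.44% and 9.56% of all stretches.

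The sets of 5 and 3 receptors were told apart by these same levels, so the order of the groups and the correlations within and between the sets describe them and are no separate evidence for the division. For Fpr1, C5ar1 and Ccr1 shikonin 24 h was above shikonin 4 h, and both were above the acetone groups, which for C5ar1 and Ccr1 were at the floor and for Fpr1 did not differ beyond their spread. For Ltb4r1 the shikonin groups did not differ beyond their spread and lay above the acetone groups, and for Fpr2 the same held with acetone 24 h below acetone 4 h. For Cxcr4, Ccr2 and C3ar1 only shikonin 24 h stood above the other 3 groups, among which no neighbors in the order differed with the floor in place. Over the 8 arrays the log2 levels of Fpr1, Fpr2, Ltb4r1, C5ar1 and Ccr1 correlated at 0.87 to 0.99 in their 10 pairs, and those of Cxcr4, Ccr2 and C3ar1 at 0.93 to 0.99 in their 3 pairs. The 15 pairs across the sets had 0.55 to 0.83. These values describe 8 arrays that fall into 4 groups, and the genes share arrays and normalization. Ccr1, C5ar1 and C3ar1 each had 4 arrays set to the same floor value, and their correlations use these floored levels.

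Among 3582 candidate genes spanning at least 1 on the log2 scale, the one with the pattern most like that of Ltb4r1 over the 8 arrays was Pglyrp1 (Pearson r = 0.999), a peptidoglycan recognition protein of neutrophil granules. Snx20 (0.999) and Timp1 (0.997) came next for Ltb4r1. For Fpr1 the nearest was Lcp1 (r = 0.998), the actin-bundling L-plastin of leukocytes. Asf1a (0.996) and then Ptafr (0.996), the platelet-activating factor receptor, followed. For Fpr2 the nearest was P2ry2 (0.998), a nucleotide receptor, followed by Clec4d (0.997), a myeloid C-type lectin, and Vps37b (0.997). The pattern of C5ar1 was most like those of Tnfrsf22 (0.995), Ccrl2 (0.993), a chemerin-binding receptor, and Pmaip1 (0.992). That of Ccr1 was most like those of Snap23 (0.992), a membrane fusion protein, Rdh10 (0.992) and Pdia4 (0.988). For Cxcr4 the nearest were Tor3a (0.999), Pf4 (0.995) and Cpxm1 (0.993). For C3ar1 they were Bst2 (0.993), the interferon-induced protein tetherin, Cd24a (0.991) and Gbp6 (0.991). For Ccr2 they were Lasp1 (0.987), Plekhf2 (0.985) and Plekhm2 (0.983). The patterns of C5ar1, Ccr1 and C3ar1 include their arrays set to the floor.

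Of 30 other chemoattractant receptors, 12 were measured. Beside the counts of this and the following lists, 21.2% of all probes were higher and 25.4% lower in shikonin skin at 4 h. At 24 h these shares were 29.0% and 32.3%. In this list 8 were higher in shikonin skin and 1 lower at 4 h, with a median log2 fold change of 0.73. The counts at 24 h were again 8 and 1, with a median of 1.07. Cxcr2, the neutrophil receptor of CXC chemokines, was higher by 4.62 at 4 h and 5.94 at 24 h on the log2 scale, and Ccrl2 by 3.18 and 4.88. Ptafr was higher by 2.48 and 3.72, and Ccr7, which leads dendritic cells to lymph nodes, did not pass at 4 h (0.31) and was at least 2.53 higher at 24 h. C5ar2 and Ltb4r2, whose genes lie beside C5ar1 and Ltb4r1, were higher at 4 h by 0.72 and 0.55 and did not pass at 24 h (-0.22 for C5ar2, with both groups of Ltb4r2 at the floor). Cxcr5, a receptor of B cells and follicular T cells, was lower, with log2 fold changes of -0.87 at 4 h and -0.75 at 24 h.

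The ligands of the receptors, and the enzymes that make the lipid ligands, had 18 of 20 genes measured. Against acetone skin of the same time, 9 were higher and 2 lower in shikonin skin at 4 h with a median of 0.56. At 24 h 14 were higher and 2 lower with a median of 1.89. Within shikonin skin 7 were higher and 3 lower at 24 h than at 4 h, with a median of 0.29, and 24.2% of all probes were higher. Ccl3 and Ccl4, inflammatory CC chemokines of which Ccl3 binds Ccr1, were higher by 4.94 and 4.05 on the log2 scale at 4 h, and by at least 8.28 and 7.53 at 24 h. Ccl5, another ligand of Ccr1, was lower at 4 h (log2 fold change -1.69, adjusted p = 2.2e-04) and at least 1.73 higher at 24 h. Ccl2 and Ccl7, ligands of Ccr2, passed the test at 4 h, when the receptor did not. Ccl2 was higher by at least 2.98 at 4 h and by 4.90 at 24 h, and Ccl7 by 2.11 and at least 3.12. Ccl12, another ligand of Ccr2, did not pass at 4 h (0.39, adjusted p = 0.072) and was higher by 3.52 at 24 h.

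Cxcl12, the ligand of Cxcr4, averaged 3573 ± 687 in shikonin skin and 2376 ± 205 in acetone skin at 4 h (SD, n = 2 each), a log2 difference of 0.58 that did not pass (SE 0.26, adjusted p = 0.097). At 24 h the averages were 11629 ± 169 in shikonin skin and 1857 ± 802 in acetone skin, and Cxcl12 was higher by 2.72 (SE 0.26, adjusted p = 1.6e-05). Cx3cl1, the ligand of the blank receptor Cx3cr1, differed by -0.17 at 4 h (adjusted p = 0.33) and was lower at 24 h (log2 fold change -1.94). C3, the source of C3a, was lower at both times, with log2 fold changes of -0.46 and -0.25. Hc, the gene of complement C5, was near the floor and did not pass at either time. Saa3, an acute-phase serum amyloid A, was higher by 2.54 at 4 h and at least 7.46 at 24 h, and Anxa1 did not pass at 4 h (-0.30) and was higher by 0.99 at 24 h. Alox5ap, which presents arachidonic acid to the leukotriene enzyme Alox5, was higher by at least 1.48 and at least 1.94, and Alox5 itself by 0.54 and 0.95. In acetone skin 12 of the 18 ligand genes were lower and 0 higher at 24 h than at 4 h, with a median of -1.32. Of all probes 14.2% were lower, and their median was 0.06.

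**Figure D4:**
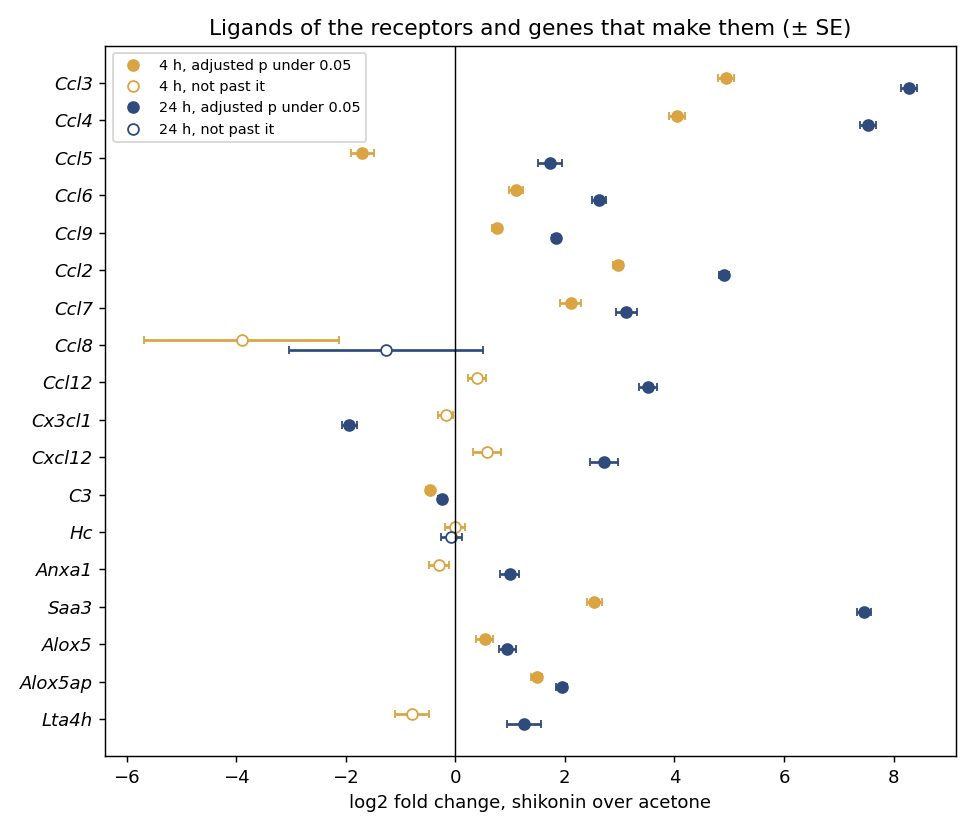
Log2 fold change of shikonin over acetone at 4 h and 24 h for the 18 measured ligand genes and ligand makers, with bars of 1 SE. Filled circles passed an adjusted p of 0.05, open circles did not, and Ccl3, Ccl4 and Saa3 lie farthest to the right at 24 h, where their values are lower bounds.

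Genes that carry the receptor signal were measured for 18 of 24. The 4 h arrays had 7 higher and 3 lower in shikonin skin (median 0.28), and the 24 h arrays 13 higher and 2 lower (median 0.94). Fgr, a Src-family kinase of myeloid cells, was higher by 2.05 at 4 h and 3.58 at 24 h, and Vav1, an exchange factor for Rac, by 0.78 and 2.83. Gnb1, a G protein beta subunit, was higher by 1.36 and 1.05. Gnai3, an inhibitory alpha subunit, was lower at 4 h (-1.20) and higher at 24 h (1.26). Plcb3, a phospholipase C, was lower at both times (-0.68 and -0.86), as was the alpha subunit Gna15 (-0.61 and -1.62).

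Genes that end the signal, G protein-coupled receptor kinases, arrestins and RGS proteins, were measured for 13 of 14. Against acetone skin of the same time, 4 were higher and 3 lower at 4 h (median 0.18), beside 21.2% and 25.4% of all probes. At 24 h 9 were higher and 1 lower (median 0.82), beside 29.0% and 32.3% of all probes. Rgs16 was higher by 2.19 at 4 h and 1.35 at 24 h, and Grk6 by 1.26 and 0.78. Rgs1, which damps chemokine responses in leukocytes, was higher by 0.81 at 4 h and 4.47 at 24 h. Arrb2, an arrestin, did not pass at 4 h (-0.15) and was higher by 2.18 at 24 h. Rgs10 was lower at both times (-1.32 and -0.90), and Rgs3 was lower at 4 h (-0.74) and did not pass at 24 h (-0.09).

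Markers of myeloid cells did not all move beside the receptors. Of 13 measured neutrophil markers 12 were higher in shikonin skin at 4 h, and at 24 h 13 were, with medians of 2.88 and 4.59. Their summed intensity at 4 h was 306009 to 312116 in shikonin skin and 86683 to 94722 in acetone skin. At 24 h it was 334756 to 346101 in shikonin skin and 23894 to 24161 in acetone skin. No neutrophil marker was at the floor on both arrays in shikonin skin, while 3 were in acetone skin at 4 h (Ngp, Trem1 and Trem3) and 4 at 24 h (the same with Mmp8). Cxcr2 stands both in this list and among the other receptors.

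Monocyte and macrophage markers divided at 4 h, with 8 of 15 higher and 5 lower (median 0.41), and at 24 h 13 were higher and 1 lower (median 2.55). Their summed intensity was 263360 to 268527 in shikonin skin and 173485 to 181619 in acetone skin at 4 h. At 24 h it was 459286 to 472904 in shikonin skin and 117490 to 120217 in acetone skin. The effect was larger at 24 h than at 4 h for 15 of 15, beside 21.1% of all probes. No marker of this list was at the floor on both arrays in shikonin skin, while 1 (Fcgr1) was in acetone skin at 24 h. Of 11 resident dermal macrophage markers 7 were lower and 0 higher in shikonin than in acetone skin at 4 h. At 24 h 2 were lower and 3 higher. Of 8 Langerhans and dendritic cell markers 5 were lower and 2 higher at 4 h, and 6 lower and 2 higher at 24 h. Of 6 mast cell markers 3 were lower and 1 higher at each time. Pan-leukocyte markers were higher for 5 of 8 at 4 h with 1 lower, and for 8 of 8 at 24 h, whereas keratinocyte markers were lower for 9 of 11 and 10 of 11. The part of these cell types in the receptor values was not tested.

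**Figure D5:**
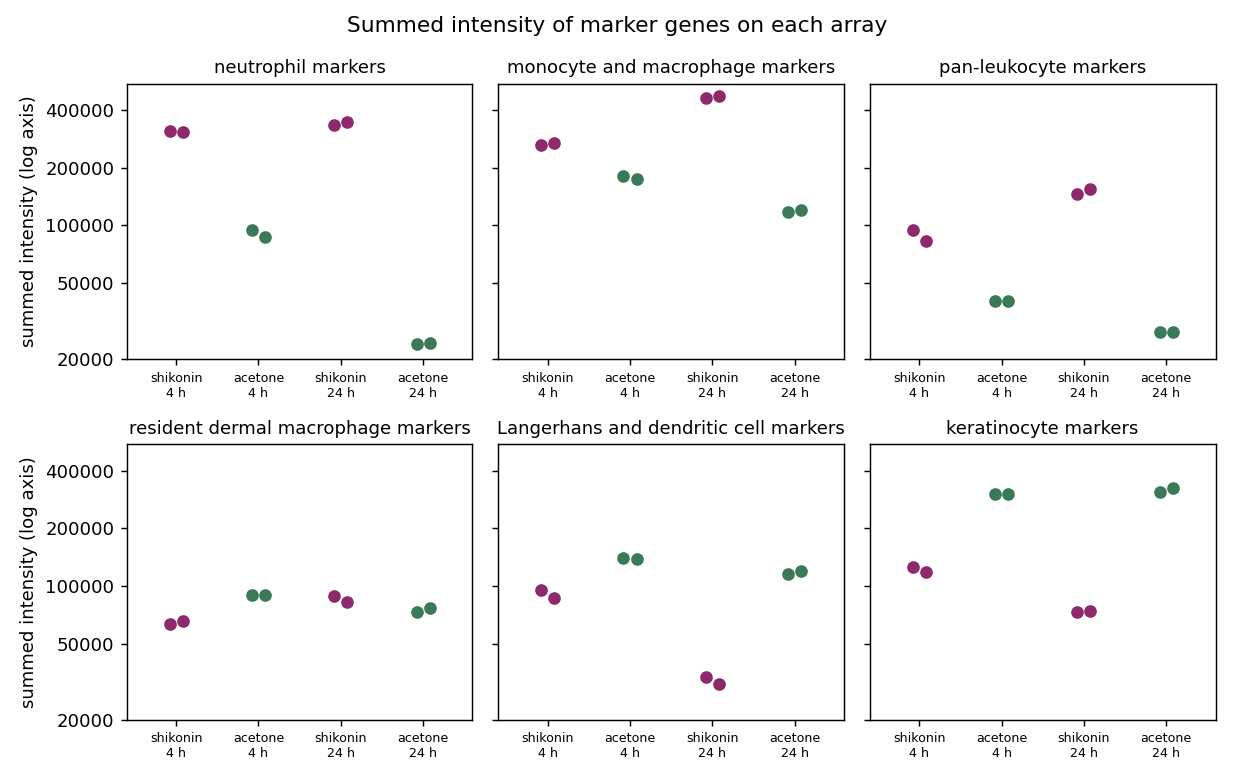
Summed intensity (log axis) of the measured markers of 6 cell types on each array. Neutrophil markers were high in shikonin skin at both times, monocyte and macrophage markers were highest in shikonin skin at 24 h, and keratinocyte markers were lower in shikonin skin at both times.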

How the data were processed

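RNA of mouse skin was measured on 8 one-color arrays. Per the methods, the authors amplified total RNA, labeled it with Cy5, hybridized it to the Mouse OneArray, scanned it with GenePix and analyzed it in Spotfire. The deposited values are linear intensities per probe, near-identical in distribution between arrays and so taken as normalized by the authors. For 16069 of 29922 probes the table is blank on every array. The sources used here do not give how values were normalized, background-corrected or filtered. The number of arrays limits the precision.

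Intensities were floored at 203.4 (the 5% quantile) and log2-transformed. The 4 group means were fitted over 13853 probes with limma 3.58.1 in R 4.3.3 (intensity trend, 4 residual degrees of freedom), 7 contrasts were tested, and p-values were adjusted by Benjamini-Hochberg within each. A call is an adjusted p under 0.05. A change is given as "at least" if the dimmer group was floored on both its arrays or if a brighter array read 65000 or more, and list medians hold such genes at their bound. Probe symbols were current for 9712 probes, updated for 1807, kept for 31 and missing for 2303. The brightest probe stood for a gene in the lists. Genes named from the lists were those with the largest called changes in each direction at each time (2 per list), and 13 further ligand genes and receptors were named after their values were seen. Correlations for likeness were Pearson coefficients over 8 arrays. Promoters came from RefSeq (GRCm38.p6), where all 9 receptors matched. For Ccr2 and C5ar1 the start used lies inside the gene's RefSeq span. The stretch of Ccr2 lies wholly and that of C5ar1 partly within that span. Probe sequences were not used, so cross-hybridization between neighboring family members was not examined. The receptors and lists were chosen with earlier results of these data known. The fit was tested on simulated data. Alternatives were other floors, normalizations, filters, weights, fits and thresholds, the replicate number as a block and leaving out each array, where the lone array of a group is assumed to vary like the other groups. Python 3.11.15 and matplotlib 3.10.9 drew the figures.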

Additional observations from a re-analysis of the deposited data

Results flagged for a closer look

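The effect of shikonin differed between 24 h and 4 h for 6 of the 8 measured receptors, by the test of the difference itself in the limma fit. The differences on the log2 scale, 24 h effect minus 4 h effect, were 2.33 for Ccr2, 2.39 for Cxcr4, 0.77 for C5ar1, at least 2.81 for C3ar1, 1.10 for Fpr1 and 2.88 for Fpr2. That of C5ar1 was taken with all 4 acetone arrays at the floor, so it carries no bound. The calls on C5ar1 and Fpr1 did not hold in every alternative. With no floor in the limma fit the call on C5ar1 was lost (0.44, adjusted p = 0.273), and Ccr1 passed (1.98, adjusted p = 0.0027). The Fpr2 difference stood beside a lower level in acetone skin at 24 h than at 4 h. Those of Ccr2, Cxcr4 and C3ar1 stood beside a higher level in shikonin skin at 24 h than at 4 h. Acetone skin was also lower in C3ar1 at 24 h than at 4 h when no floor was set (-1.08, adjusted p = 0.0043 in the limma fit). Between the acetone groups Ccr2 and Cxcr4 differed by -0.53 and -0.16 without passing the test.

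Of 33 other receptors, ligand genes and signaling genes named with their changes, 23 differed between the times in either direction. Of all probes, 21.1% had a larger effect at 24 h. That share covers the higher direction only, whereas the 23 include the negative differences of Cx3cl1, Gna15 and Rgs16. The share and the count are therefore not alike. The 33 were chosen from these same data, 20 by the rule that names the largest called changes and 13 after their values were seen. Their count is therefore no separate evidence. The other receptors Ccrl2, Cxcr2 and Ptafr had differences of 1.70, 1.32 and 1.24, and Ccr7 one of at least 2.22. Of the ligand genes, Ccl12 had 3.12, Cxcl12 2.14, Anxa1 1.29 and Cx3cl1 -1.76. Arrays at the floor in acetone skin at 24 h or in shikonin skin at 4 h, or saturated in shikonin skin at 24 h, made other differences lower bounds, at least 3.34 for Ccl3, 3.49 for Ccl4, 3.43 for Ccl5, 1.01 for Ccl7 and 4.92 for Saa3, with opposite signs at 4 h and 24 h for Ccl5. That of Ccl2 was at most 1.92, since 1 shikonin 4 h array was saturated, and that of Alox5ap, saturated on 1 shikonin array at each time, was 0.46 with no bound. Of the signaling genes, Gnai3 had 2.46 with opposite signs at the times, Gna15 -1.002, Vav1 2.04 and Fgr 1.53. Of the genes that end the signal, Arrb2 had 2.33, Rgs1 3.66, Rgs10 0.43 and Rgs16 -0.84.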

How the results depend on the processing

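The 24 h calls on all 8 receptors held in every alternative in which a receptor was measured, as did the 4 h calls on Fpr1, Fpr2 and Ltb4r1 and the differences of effects of Ccr2, Cxcr4, C3ar1 and Fpr2. With the floor at the 25% quantile 3 receptors were higher at 4 h, and Fpr1 differed by 0.018 between acetone 24 h and acetone 4 h, against -0.15. Without the dimmer 50% of probes only 4 receptors were left, of which 3 were higher at 4 h, 4 at 24 h, 3 in the difference of effects and 2 in shikonin 24 h over 4 h. There 5 of 7 other receptors were higher at 4 h, 1 ligand of 13 was lower at 4 h and 1 at 24 h, and 2 and 4 of 6 signal-ending genes were higher at 4 h and 24 h. Fewer genes were tested in it. In acetone skin 3 receptors were lower at 24 h than at 4 h with no floor and 2 with a floor at the 1% quantile. Leaving out each array gave 5 receptors at 4 h and 8 at 24 h each time, 4 to 6 in the difference of effects, 5 to 6 in shikonin 24 h over 4 h and 1 to 2 in acetone 24 h over 4 h. It turned the sign of Ccr2 at 4 h (-0.28 to 0.19, positive without replicate 1 of either group) and of Fpr1 in acetone 24 h over 4 h (-0.49 to 0.19, positive without acetone 24 h replicate 2). Of 1028 alternative values of single receptors, 993 kept direction and call, 20 lost the call, 11 gained it and 4 turned sign. Apart from the smaller number of genes in the filtered fit, the cause was not tested. Levels under the floor carry no order.

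The sources give the arrays a replicate number and do not say that it marks an experiment or an animal. Same-numbered arrays correlated in their deviations at -0.04 for shikonin and acetone at 4 h and 0.21 at 24 h. With the replicate block 5 receptors were higher at 4 h, 8 at 24 h and 6 in the difference of effects, and no receptor's call changed.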
